A study of Mus musculus with 32 samples.

Results

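The contrast described here is the difference between the response to lipopolysaccharide (LPS) in leukaemia-experienced mice and the response in naive mice, measured in the RNA of sorted haematopoietic stem and progenitor cells (HSPCs). It was computed as (experienced LPS minus experienced PBS) minus (naive LPS minus naive PBS) on the log2 scale. A value of 0 means equal responses, and a positive value means that the response ran higher in experienced mice. The members were chosen by group label alone: 16 of the 16 expression tables of the series entered, 4 per group. In both arms, lethally irradiated C57BL/6J recipients (CD45.2) received 800000 healthy wild-type marrow cells (CD45.1+/2+) together with 200000 partner marrow cells (CD45.1). In experienced mice the partner cells were iMLL-AF9, homozygous for the inducible human MLL-AF9 fusion oncogene and for its doxycycline-controlled activator rtTA. Naive mice received partner cells that carried rtTA without hMLL-AF9. All recipients were given doxycycline for 5 weeks, starting 6 to 8 weeks after transplantation, and were then kept off it for 4 weeks. PBS or LPS was injected 24 hours before the marrow was taken. The cells sequenced were the healthy wild-type donor HSPCs (CD45.1+/2+, Lin- cKit+ Sca1+), not the leukaemic cells.

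The model has limits that apply to every value. The hosts were irradiated and transplanted, doxycycline and rtTA were present in both arms, and 1 time after injection was sampled. The labels list 32 samples as 4 biological replicates per group with 2 technical replicates each, and 16 tables carry the biological numbers. They do not say whether a replicate is 1 mouse or a pool, and p-values reflect library-to-library spread only, which may be technical. The labels name a single-cell droplet chemistry for library construction, while the tables hold 1 bulk profile each. In such bulk samples, fewer cells of a type and less RNA per cell cannot be told apart.

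LPS is a cell-wall component of Gram-negative bacteria that is sensed by Toll-like receptor 4. Sensing leads through Myd88 to NF-kB and, through a separate adaptor, to type I interferon, whose receptor activates Stat2 and the large set of interferon-induced antiviral genes. HSPCs respond to LPS directly and through cytokines made by other marrow cells. Inflammation is known to push stem cells into cycle and toward myeloid and megakaryocyte fates, to reduce lymphoid priming, and to raise the surface protein Sca1, encoded by Ly6a.

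The interferon genes gave one of the clearest leans of the contrast, so the promoters of 3 of them are shown first. In RefSeq promoters of GRCm38.p6, reaching from 250 bases before to 50 bases after the start site, an interferon-response core, GAAA followed after any 2 bases by a further GAAA, was searched on both strands, and overlapping matches were counted. It was present in 3.44% of all 32851 promoters. It was present in 15 of 30 promoters of the interferon-induced list (50%) and in 9 of 11 promoters of the interferon-gamma GTPase list (81.8%). By comparison, 0 of 20 erythroid promoters and 1 of 30 promoters of the glycolysis and hypoxia list (3.33%) held it. The 250 bases before the start site follow for Oas3, Irgm1 and Stat2, all on GRCm38.p6, with the matching letters in capitals. They were picked, by low unadjusted p of the difference, only among interferon-list members that hold the core in these 250 bases. That each of them holds it was thus fixed by the choice. Oas3 lies at chr5:120777660-120777909 on the minus strand, Irgm1 at chr11:48871421-48871670 on the minus strand, and Stat2 at chr10:128270248-128270497 on the plus strand.
Oas3: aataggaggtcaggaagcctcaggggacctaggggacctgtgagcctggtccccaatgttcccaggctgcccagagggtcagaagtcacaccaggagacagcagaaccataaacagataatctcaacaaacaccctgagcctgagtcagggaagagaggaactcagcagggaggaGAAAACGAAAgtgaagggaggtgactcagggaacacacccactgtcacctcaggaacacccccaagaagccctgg
Irgm1: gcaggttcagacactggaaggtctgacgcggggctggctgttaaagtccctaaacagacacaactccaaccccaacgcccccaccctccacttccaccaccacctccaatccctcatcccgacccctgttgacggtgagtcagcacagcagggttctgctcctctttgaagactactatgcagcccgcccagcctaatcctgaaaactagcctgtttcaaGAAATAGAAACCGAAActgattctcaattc
Stat2: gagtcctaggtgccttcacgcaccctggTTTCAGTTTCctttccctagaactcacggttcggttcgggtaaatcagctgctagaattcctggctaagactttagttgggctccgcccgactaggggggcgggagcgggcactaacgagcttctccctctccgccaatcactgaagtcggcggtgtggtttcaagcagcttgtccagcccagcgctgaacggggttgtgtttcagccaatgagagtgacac
Oas3 held 1 match, starting 75 bases before the start site. Irgm1 held 2 overlapping matches, the last starting 24 bases before it. Stat2 held 1 match on the opposite strand, starting 222 bases before it. Of the 35 and 16 tested genes of the 2 interferon lists, only 25 and 10 had a promoter in the set. Among these, the median difference of responses was -0.34 over the 23 genes with the core (19 negative). It was -0.62 over the 12 without (10 negative). Without experienced LPS 4 these medians were -0.49 and -0.80.

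Library quality bears on the contrast and was unequal. Totals ran from 7.72 M to 22.3 M expected counts. Experienced LPS 4 was the shallowest library, had 14887 genes with a count against 17294 to 18857 in the other experienced LPS libraries, and a mitochondrial share of 7.30%, where the other 3 had 1.91 to 2.50%. Its mean correlation with its own group was 0.915, and a fit that estimates library quality gave it a weight of 0.16, the lowest of all. Experienced PBS 4 (5.94% mitochondrial, weight 0.336), experienced PBS 3 (weight 0.351) and naive LPS 2 (8.54 M counts, weight 0.25) also stood apart. Where a difference named below moved by over 1.5 times without experienced LPS 4 or without experienced PBS 4, that value is given too. The sort-gate genes were present throughout: Kit, the stem cell factor receptor, ranged from 404 to 778 CPM (normalised counts scaled to a common library size) and Ly6a from 14.7 to 157 CPM. Some defining genes of mature cells were low, while the summed marker lists, given further down, were not at 0. C1qa of macrophages stayed at or under 2.98 CPM, and Cd3e and Cd3d of T cells, Camp of neutrophils and Cxcl12 and Cdh5 of stroma and endothelium fell below the filter on low counts.

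No gene passed the threshold for a different response. Of 15186 genes tested, 0 had an adjusted p under 0.05 (0% called; edgeR's quasi-likelihood test, Benjamini-Hochberg), and the lowest adjusted p was 0.884. At an unadjusted p under 0.05, 231 genes had a positive difference (1.52% of those tested) and 464 a negative one (3.06%), 695 in all (4.58%). DESeq2 called 1 gene (0.00659%), with 837 at an unadjusted p under 0.05 (5.51%), and limma voom with quality weights called 0, with 2397 (15.8%). Without experienced LPS 4, edgeR again called 0 genes, with a lowest adjusted p of 0.183 and 2561 genes at an unadjusted p under 0.05 (16.9%). The single differences that follow are estimates that did not pass, with their error. By way of comparison, LPS alone changed many genes in the same fit: 1490 rose (9.81%) and 1803 fell (11.9%) in naive mice, and 686 rose (4.52%) and 1254 fell (8.26%) in experienced mice. The share of rises depended on the scaling: of the naive calls 45.2% were rises, against 35.0% with upper-quartile factors (1102 and 2046) and 19.9% on log2(TPM + 1) (374 and 1506), and of the experienced calls 35.4% were rises, against 15.7% on log2(TPM + 1) (178 and 954).

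The precision of the data bounds what a count of 0 says. The median difference over all genes was -0.03 with a median SE of 0.35 on the log2 scale, and 53.2% of genes had a negative difference. For 7056 genes (46.5%) the 95% interval lay within 1 log2 unit of 0, and for 11756 genes (77.4%) within 2 units. In simulated data of this design, 4-fold differences were recovered for 90% of changed genes, 2-fold differences for 18% and 1.5-fold differences for 2%. The changed genes, 50 per fold size, all had a mean log2 CPM of at least 2. The simulation held no LPS effect, and no library was given extra spread. These rates therefore do not cover low genes and may be higher than those of the data.

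Genes were sorted by direction and class of response. Over all 15186 genes tested, 4764 responses were stronger in experienced mice, 6682 weaker and 3740 opposite. Among the 695 at an unadjusted p under 0.05 these counts were 66, 241 and 388. Opposite responses tend to cancel in the average over both arms, so few of them can be called on it. Of the 10102 genes not called on average, 3736 had opposite signs. Of 2304 genes higher after LPS on average over both arms (15.2% of genes tested), 809 had a stronger estimated response in experienced mice, 1493 a weaker one and 2 opposite signs. Among the 130 of them at an unadjusted p under 0.05, 13 were stronger, 115 weaker and 2 opposite. Of 2780 genes lower after LPS on average (18.3%), 1033 fell further in experienced mice by estimate, 1745 fell less and 2 had opposite signs. This excess of weaker responses among the higher genes was not there without experienced LPS 4: of 2730 genes then higher, 1345 were stronger, 1325 weaker and 60 opposite. Under quality weights 2182 of 3849 were stronger and 1605 weaker. Among the lower genes, weaker responses stayed more frequent without that library (1691 of 2991, against 1262 stronger), but were nearly as frequent as stronger ones under quality weights (2096 and 1993 of 4143).

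For the gene lists that follow, members at an unadjusted p under 0.05 are counted, and the same share over all genes is the background. It was 1.52% positive and 3.06% negative with all libraries, 6.78% and 10.1% without experienced LPS 4, 1.07% and 1.51% without experienced PBS 4, and 7.71% and 8.07% under quality weights. The range of a list median is its lowest and highest value when each library in turn is left out. A difference of responses can come from values at rest, from values after LPS, or from both. For some lists the group mean of the list score (mean over members of centred log2 CPM) is therefore given at rest and after LPS.

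**Figure D1:**
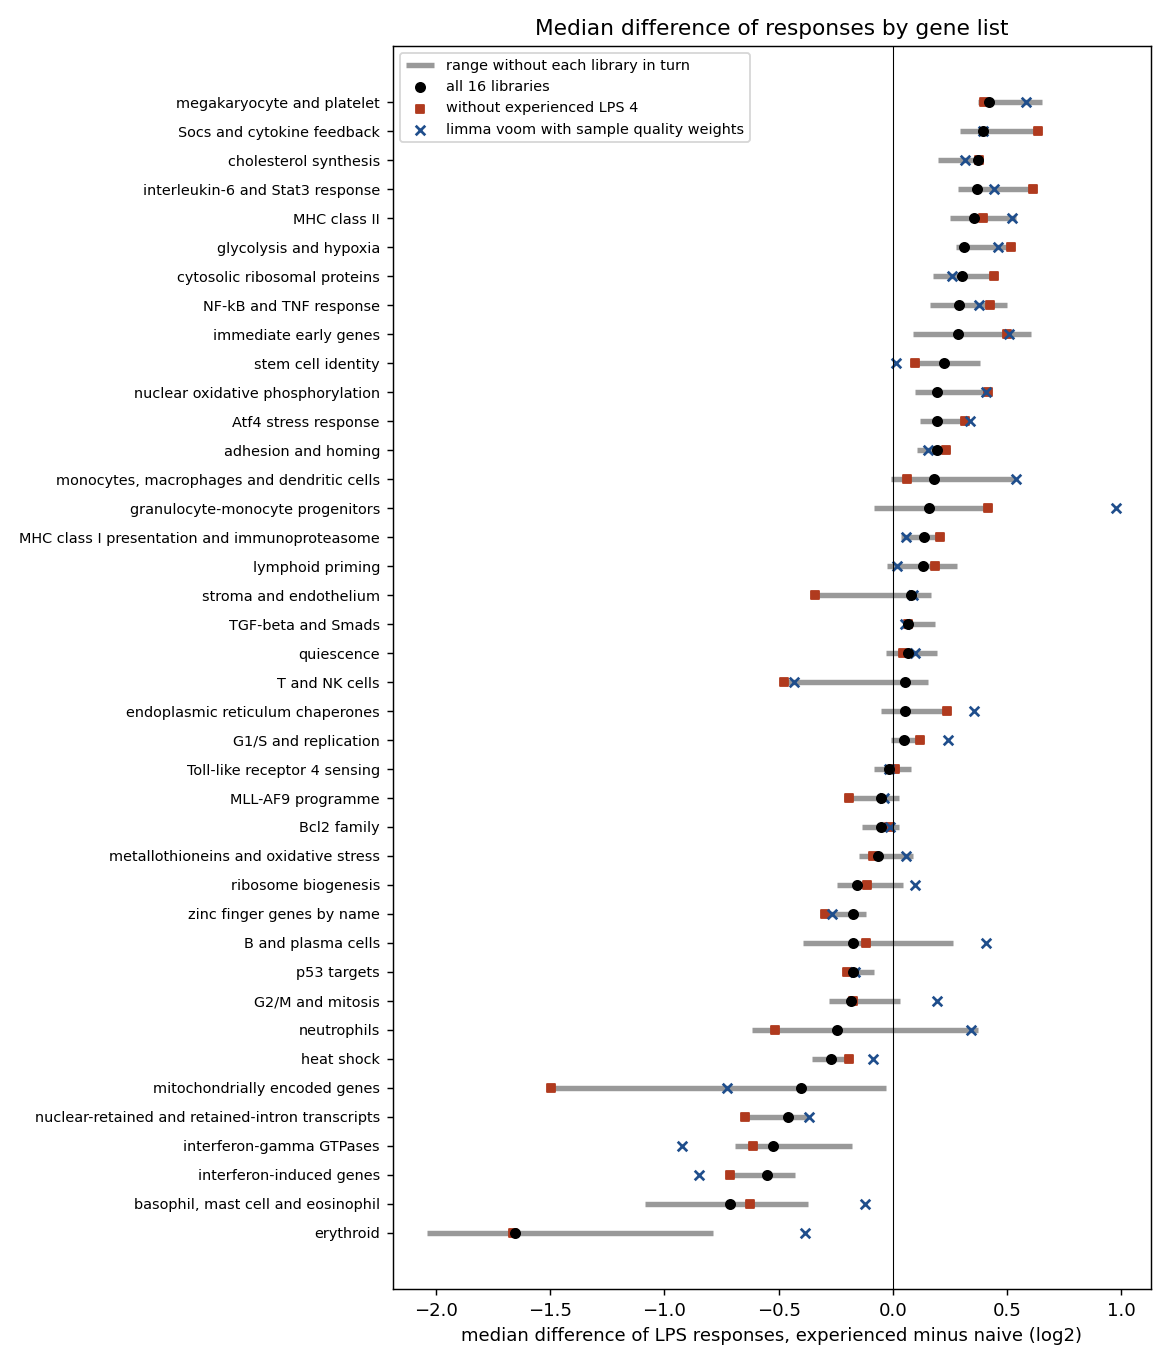
Median difference of LPS responses (experienced minus naive, log2, horizontal axis) for each gene list (vertical axis). Black points use all 16 libraries, grey bars span the values without each library in turn, red squares leave out experienced LPS 4 and blue crosses are from limma voom with quality weights. The erythroid (-1.65), basophil (-0.71) and interferon lists (-0.55 and -0.52) lie lowest, and the erythroid bar is among the longest.

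Interferon-induced genes leaned to a weaker response in experienced HSPCs. Of 35 such genes, 24 rose in naive mice (median 1.03) and 7 rose in experienced mice (median 0.47), and none fell in either. The difference was negative for 29 of 35, with a median of -0.55 beside -0.03 over all genes. By class, 25 responses were weaker, 5 opposite and 5 stronger, beside 6682, 3740 and 4764 of all 15186 genes. At an unadjusted p under 0.05, 7 members were negative and 0 positive, beside 3.06% and 1.52% of all genes. Leaving out each library in turn gave medians from -0.71 to -0.43, the first without experienced LPS 4, where 22 members were negative and 1 positive at an unadjusted p under 0.05, beside 10.1% and 6.78% of all genes. Under quality weights the median was -0.85, with 27 members negative and 0 positive, beside 8.07% and 7.71%.

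Cmpk2, a mitochondrial nucleotide kinase induced by interferon, had the lowest p of the list. In naive mice it stood at 22.5, 22.2, 20.2 and 25.3 CPM after PBS and 62.2, 30.6, 57.0 and 43.1 CPM after LPS. The experienced libraries held 23.7, 27.0, 27.1 and 45.5 CPM after PBS and 32.3, 28.4, 33.4 and 37.7 CPM after LPS. The naive groups did not overlap, the experienced groups did, and experienced PBS 4 was high at rest. Cmpk2 rose in naive mice (1.10, adjusted p = 0.0027), its value in experienced mice was 0.10 (adjusted p = 0.815), and the difference was -1.0 (SE 0.31, unadjusted p = 0.00491). Without experienced PBS 4 it was -0.75.

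Oas2, which makes the second messenger that activates RNase L on double-stranded RNA, showed the same order. Naive libraries held 27.1, 32.9, 29.2 and 41.3 CPM after PBS and 189, 94.8, 82.9 and 158 CPM after LPS. Experienced libraries held 45.5, 65.6, 19.6 and 41.3 CPM after PBS and 52.1, 63.7, 53.7 and 109 CPM after LPS. Experienced LPS 4 was the highest of its group and the only one of the 4 within the naive LPS range. The difference was -1.32 (SE 0.47, unadjusted p = 0.0124), and -1.61 without experienced LPS 4. Its relative Oas3, whose promoter is shown above, gave -0.77 (SE 0.30, unadjusted p = 0.0218).

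Xaf1, an interferon-induced antagonist of apoptosis inhibitors, followed with a difference of -0.94 (SE 0.33, unadjusted p = 0.0121). It was measured at 16.9, 23, 19.2 and 22.5 CPM after PBS and 46.5, 38.6, 35.6 and 45.4 CPM after LPS in naive mice. The experienced values were 28.4, 31.9, 16.2 and 32.5 CPM after PBS and 23.1, 28.1, 21.4 and 44.0 CPM after LPS. Here too the first 3 experienced LPS libraries lay within the range of their PBS group, while experienced LPS 4 lay among the naive LPS libraries, and the difference without it was -1.19.

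The transcription factors of the pathway showed smaller differences. Stat2, which carries the signal of the type I interferon receptor, gave -0.65 (SE 0.31, unadjusted p = 0.0481). Irf7, which amplifies interferon production, gave -0.64 (SE 0.42, unadjusted p = 0.144); Irf7 rose in both arms (2.33 and 1.69). Cxcl10, an interferon-induced chemokine outside that list, rose in both arms (3.39 and 3.29), and the 95% interval of its difference ran from -1.22 to 1.02.

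Interferon-gamma GTPases, which attack the vacuoles of intracellular microbes, leaned the same way: 15 of 16 differences were negative, with a median of -0.52. Of these genes, 7 rose and 1 fell in naive mice, and 3 rose and 1 fell in experienced mice. At an unadjusted p under 0.05, 2 were negative (3.06% of all genes) and 0 positive. Irgm1, a regulator of this family, stood at 56.1, 58.2, 68.0 and 81.9 CPM after PBS and 164, 82.4, 144 and 149 CPM after LPS in naive mice. It stood at 71.9, 81.1, 68.8 and 74.3 CPM after PBS and 97.8, 97.0, 86.1 and 113 CPM after LPS in experienced mice, where PBS and LPS libraries did not overlap either, and its difference was -0.62 (SE 0.26, unadjusted p = 0.0263). Gbp6 gave -1.5 (SE 0.58, unadjusted p = 0.0184), Gvin1 -0.71 (SE 0.36, unadjusted p = 0.0618) and Gbp4 -1.38 (SE 0.88, unadjusted p = 0.136, -2.31 without experienced LPS 4). The list median was nearest 0 without naive LPS 1 (-0.18), the library with the highest interferon score. Reads of near-identical Gbp, Oas and Irg copies are divided between genes by the authors' quantification, so single members are uncertain.

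**Figure D2:**
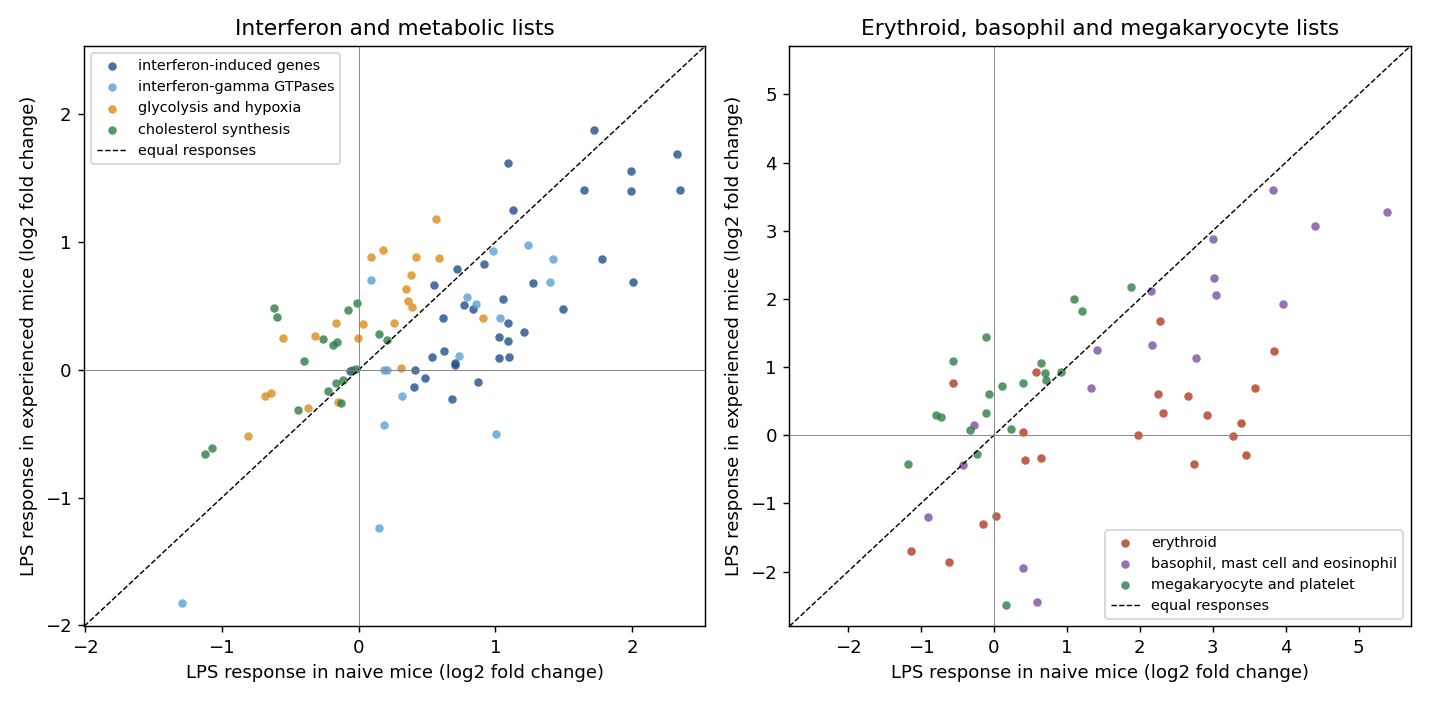
LPS response in naive mice (horizontal axis, log2 fold change) against the response in experienced mice (vertical axis, log2 fold change). Each point is a gene of the list given by its colour, and the dashed line marks equal responses. Of the interferon-induced genes, 29 of 35 lie below the line, as do 19 of 21 erythroid genes, while 17 of 20 megakaryocyte genes lie above it.

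Erythroid genes had the largest median difference of any list. Of the libraries left out in turn, 1 resting library changed its size most. Of 21 genes, 12 rose in naive mice (median 2.25) and 1 rose in experienced mice (median 0.05). The difference was negative for 19 of 21, with a median of -1.65 and 10 members negative at an unadjusted p under 0.05, beside 3.06% of all genes. Without experienced PBS 4 the median was -0.79 and 0 members were left at an unadjusted p under 0.05 (1.51% of all genes negative). Under quality weights the median was -0.39, with 1 member at an unadjusted p under 0.05 (8.07% of all genes negative). With each library left out the median ranged from -2.04 to -0.79. Every one of the 21 intervals reached beyond 1 log2 unit.

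Klf1 is a master regulator of red-cell genes. In naive mice it was at 9.20, 9.92, 10.3 and 1.80 CPM after PBS and 70.0, 28, 90.9 and 48.6 CPM after LPS. Experienced mice had 5.39, 4.94, 21.8 and 88.1 CPM after PBS and 32.8, 23.2, 40.4 and 49.4 CPM after LPS. After LPS the groups overlapped. At rest, experienced PBS 3 and 4 were above every naive PBS library, while experienced PBS 1 and 2 were within the naive range. The difference was -2.63 (SE 1.02, unadjusted p = 0.0192) with all libraries and -1.14 without experienced PBS 4.

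Gata1, a transcription factor of erythroid, megakaryocyte and mast cell lineages, repeated this pattern. Naive mice had 25.6, 27.7, 20.9 and 8.98 CPM after PBS and 137, 62.9, 113 and 84.2 CPM after LPS. Experienced mice had 13.9, 21.2, 53 and 102 CPM after PBS and 74.0, 63.2, 74.2 and 75.5 CPM after LPS. Its difference was -1.65 (SE 0.66, unadjusted p = 0.0229), and -0.95 without experienced PBS 4. Car1, a red-cell carbonic anhydrase, gave -3.29 (SE 1.27, unadjusted p = 0.0194, -1.74 without experienced PBS 4), and the blood-group gene Rhd -3.17 (SE 1.23, unadjusted p = 0.0199, -1.31 without experienced PBS 4). Uros, an enzyme of haem synthesis that entered by its low p and not through this list, gave -1.02 (SE 0.32, unadjusted p = 0.00515) and was at -0.78 without experienced PBS 4.

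**Figure D3:**
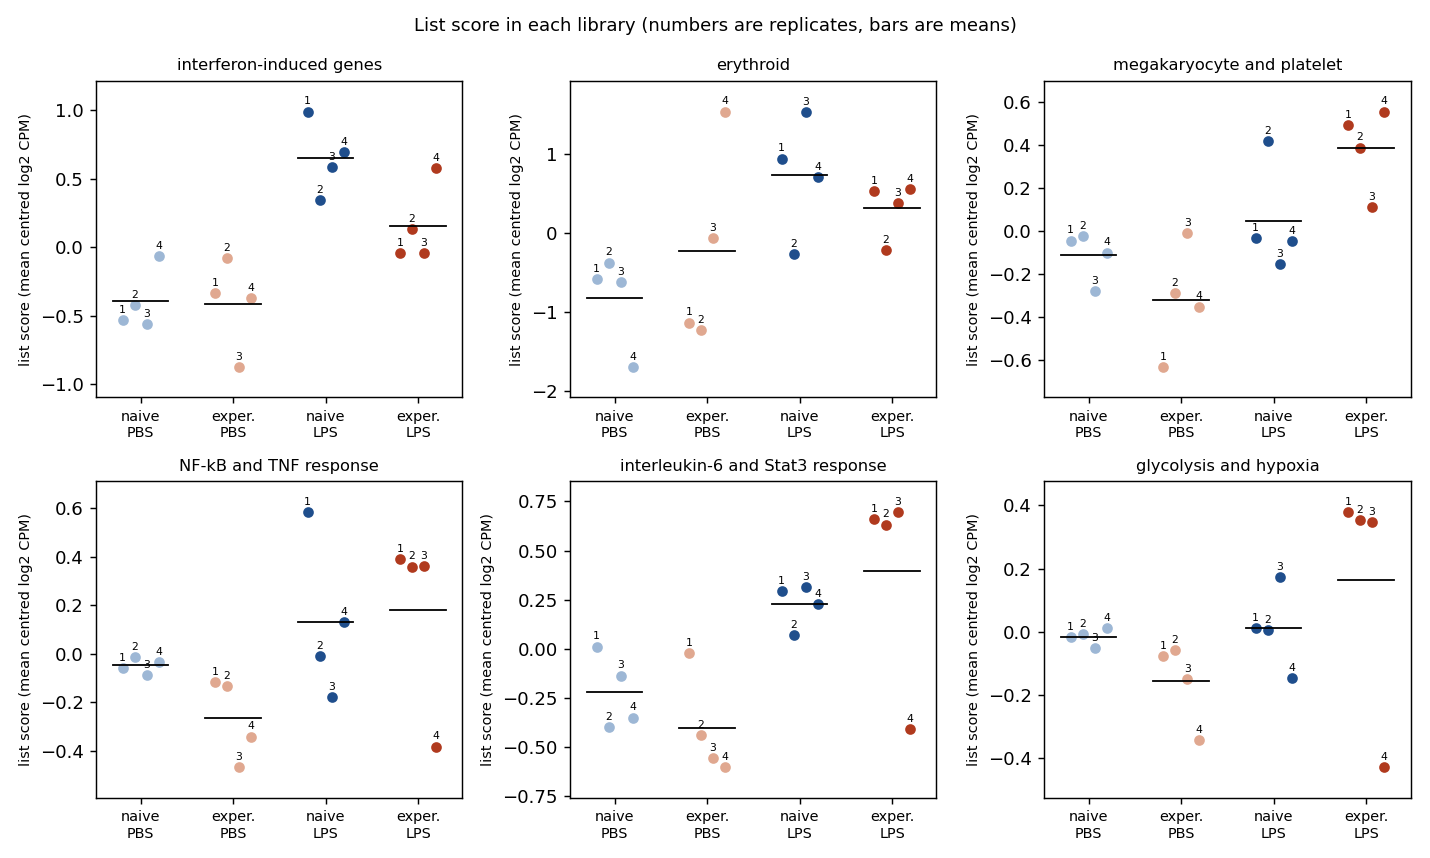
Score of 6 gene lists (vertical axis, mean over members of log2 CPM centred on each gene's mean) in each library, grouped by condition on the horizontal axis ("exper." is experienced). Numbers are replicates and bars are group means. Experienced PBS 4 lies at 1.54 on the erythroid score. Experienced LPS 4 lies below the other 3 of its group on the NF-kB, interleukin-6, and glycolysis and hypoxia scores.

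Basophil, mast cell and eosinophil genes rose in both arms and leaned to a smaller rise in experienced mice. Of 17, 12 rose in naive mice (median 2.17) and 9 in experienced mice (median 1.33), with 1 falling in each. The difference was negative for 16, with a median of -0.71 and 3 negative at an unadjusted p under 0.05, beside 3.06% of all genes. Without experienced PBS 4 the median was -0.37, under quality weights it was -0.12, and in both 0 members were negative at an unadjusted p under 0.05, beside 1.51% and 8.07% of all genes.
Il1rl1, the interleukin-33 receptor of mast cells and basophils, was at 7.38, 9.12, 10.9 and 4.13 CPM after PBS and 184, 94.4, 109 and 108 CPM after LPS in naive mice. The experienced arm had 4.55, 6.25, 28.9 and 62.0 CPM after PBS and 77.8, 63.5, 91.2 and 148 CPM after LPS. It rose in both arms, and experienced PBS 4 was the highest resting library. The difference was -2.05 (SE 0.83, unadjusted p = 0.0244), and -1.09 without that library. Gzmb, a serine protease of cytotoxic cells and of some mast cells and basophils, was at 0.265, 0.561, 1.73 and 1.26 CPM after PBS and 72.0, 12.3, 26.6 and 47.0 CPM after LPS in naive mice. The experienced libraries held 0.784, 1.15, 3.53 and 4.56 CPM after PBS and 17.1, 19.6, 26.1 and 31.2 CPM after LPS. Its difference was -2.11 (SE 0.84, unadjusted p = 0.0225), and -1.66 without experienced PBS 4; naive LPS 1 was the highest of all 16 libraries. Lmo4, a transcriptional cofactor, gave -0.64 (SE 0.30, unadjusted p = 0.0497) and the eosinophil peroxidase gene Epx -3.04 (SE 1.61, unadjusted p = 0.0764).
Fcer1a, the binding subunit of the IgE receptor, was at 3.14, 4.68, 4.90 and 2.64 CPM after PBS and 27.6, 19.5, 32.0 and 44.2 CPM after LPS in naive mice. It was at 2.82, 1.77, 3.80 and 3.07 CPM after PBS and 24.8, 23.7, 23 and 12.5 CPM after LPS in experienced mice. It rose in both arms (3.0 and 2.88), and the 95% interval of its difference was -1.02 to 0.78. Csf2rb2, the receptor subunit for interleukin-3, rose by 3.83 and 3.60 log2 units, with an interval of -1.09 to 0.64. Csf2rb2 has a near-identical neighbour, Csf2rb, and reads may be split between them.

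Megakaryocyte and platelet genes leaned the other way. Of 20, 17 had a positive difference, with a median of 0.42, 4 positive (1.52% of all genes) and 0 negative at an unadjusted p under 0.05. In naive mice 5 rose and 1 fell (median 0.14), and in experienced mice 7 rose (median 0.74). By class, 10 responses were stronger, 8 opposite and 2 weaker, beside 4764, 3740 and 6682 of all 15186 genes. The median stayed between 0.37 and 0.65 without each library in turn, and was 0.58 under quality weights.
Pf4, platelet factor 4, was at 23.6, 24.3, 16.3 and 16.6 CPM after PBS and 5.45, 19.2, 12.8 and 18 CPM after LPS in naive mice. The experienced values were 7.11, 13.5, 19.5 and 13.8 CPM after PBS and 40.0, 37.4, 22.8 and 13.7 CPM after LPS. The highest 3 values after LPS were experienced LPS 1 to 3, with experienced LPS 4 inside the naive range. Its difference was 1.64 (SE 0.54, unadjusted p = 0.00788), and 1.88 without that library. Vwf, which encodes von Willebrand factor and marks platelet-biased stem cells, stood at 64.9, 60.0, 44.5 and 42.3 CPM after PBS and 40.7, 61.1, 50.7 and 49.6 CPM after LPS in naive mice and was at 30.5, 58.2, 52.6 and 41.1 CPM after PBS and 87.3, 70.3, 55.8 and 64.5 CPM after LPS in experienced mice. Its difference was 0.68 (SE 0.29, unadjusted p = 0.0337), with LPS groups that overlapped in experienced LPS 3 only. Gp1bb, a subunit of the receptor for that factor, rose in both arms (1.10 and 2.00), with a difference of 0.90 (SE 0.39, unadjusted p = 0.032). Gp1bb shares its locus and strand with a septin gene, so its reads are uncertain.

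Genes of Toll-like receptor 4 sensing had no common direction. Of 16, 8 were positive and 8 negative, the median was -0.02 (range -0.08 to 0.08), and 12 had a 95% interval within 1 log2 unit of 0. Tlr4 itself gave an interval of -1.0 to 0.68. Myd88, its main adaptor, gave 0.32 (SE 0.27, unadjusted p = 0.244, 0.50 without experienced LPS 4), Tollip, an inhibitor of the pathway, 0.25 (SE 0.20, unadjusted p = 0.221), and the kinase gene Irak2 -0.49 (SE 0.32, unadjusted p = 0.15, -0.32 without experienced PBS 4). Cd14, the LPS co-receptor, had the lowest p of the list. It was at 1.11, 1.22, 0.816 and 0.898 CPM after PBS and 1.15, 1.94, 2.30 and 1.40 CPM after LPS in naive mice. It was at 0.837, 0.573, 0.333 and 0.186 CPM after PBS and 3.91, 3.96, 5.14 and 0 CPM after LPS in experienced mice. Experienced LPS 1 to 3 lay above every other library and experienced LPS 4 had no count. The difference was 1.97 (SE 0.99, unadjusted p = 0.063) with that library and 2.36 without it (unadjusted p = 0.000799).

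NF-kB and TNF response genes leaned positive in 16 of 24 cases, with a median of 0.29 and 2 positive at an unadjusted p under 0.05 (1.52% of all genes). The median was 0.43 without experienced LPS 4, and ranged from 0.16 without experienced PBS 3 to 0.50 without naive LPS 1. In naive mice 7 rose and 5 fell, and in experienced mice 6 rose and 1 fell. The mean list score was lower in experienced than in naive mice at rest (-0.27 and -0.05). After LPS the scores lay closer together (0.18 and 0.13). The feedback inhibitors rose in both arms, Tnfaip3 by 1.95 and 2.15, with an interval of -0.98 to 1.38 for the difference, and Nfkbia by 0.81 and 1.01. The chemokine gene Ccl5 rose in both arms too (3.96 and 4.51), with a difference of 0.55 (SE 0.73, unadjusted p = 0.465, 0.31 without experienced PBS 4).
Ccl2, a monocyte chemoattractant, was at 1.86, 0.982, 0.864 and 1.62 CPM after PBS and 2.88, 2.45, 1.46 and 3.60 CPM after LPS in naive mice. It was at 0.889, 0.416, 0.400 and 0.651 CPM after PBS and 2.24, 2.60, 2.59 and 3.71 CPM after LPS in experienced mice. These low levels overlapped after LPS, and the difference of 1.26 (SE 0.57, unadjusted p = 0.0409) stood beside resting values that were lower in 3 of 4 experienced libraries than in any naive one. Tnf stood at 13, 9.64, 11.4 and 6.71 CPM after PBS and 5.29, 2.58, 5.32 and 4.39 CPM after LPS in naive mice, where it fell (-1.2, adjusted p = 0.0271). In experienced mice it was at 9.83, 13.5, 5.33 and 6.79 CPM after PBS and 8.23, 8.70, 8.11 and 2.89 CPM after LPS. Experienced LPS 1 to 3 were above all naive LPS libraries and experienced LPS 4 was within them; the difference was 0.86 (SE 0.51, unadjusted p = 0.107), and 1.11 without it. Icam1, an adhesion molecule, gave 0.51 (SE 0.23, unadjusted p = 0.046), and the prostaglandin synthase gene Ptgs2 0.65 (SE 0.46, unadjusted p = 0.179).

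Interleukin-6 and Stat3 response genes had a positive difference in 13 of 15 cases, with a median of 0.37 and 0 at an unadjusted p under 0.05 in either direction. Without experienced LPS 4 the median was 0.61, and 5 were positive, beside 6.78% of all genes. Lrg1, an acute-phase glycoprotein, was at 0.177, 0.187, 0.144 and 0.120 CPM after PBS and 1.68, 0.646, 1.03 and 0.702 CPM after LPS in naive mice. The experienced libraries held 0.105, 0.0520, 0 and 0.186 CPM after PBS and 1.47, 2.37, 2.36 and 0.275 CPM after LPS. It rose in both arms (2.65 and 4.24), with a difference of 1.59 (SE 1.01, unadjusted p = 0.134), and 1.92 without experienced LPS 4, its group's lowest library. Saa3, an inflammatory serum amyloid, was near 0 at rest and at 2.03 to 4.52 CPM after LPS in both arms, so the difference of 1.68 (SE 1.16, unadjusted p = 0.167) rested on resting counts near 0. Lcn2, an iron-scavenging acute-phase protein, rose by 4.88 and 3.84; its difference was -1.04 with all libraries and 0.08 without experienced PBS 4. The receptor genes Il6ra and Il4ra gave 0.56 (SE 0.39, unadjusted p = 0.164) and 0.47 (SE 0.35, unadjusted p = 0.191, 0.30 without experienced PBS 4).

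Socs and other feedback genes of cytokine and growth-factor signalling leaned positive in 11 of 12 cases (median 0.40, range 0.29 to 0.63, the highest without experienced LPS 4). Much of this lean lay at rest, where the mean list score was 0.0001 in experienced and 0.35 in naive mice. After LPS the scores were -0.12 and -0.24. The members with the lowest p restrain the Ras to Erk cascade. Spry1 was at 22.2, 26.4, 19.7 and 32.3 CPM after PBS and 16, 17.8, 10.1 and 17.4 CPM after LPS in naive mice. It was at 20.7, 17.3, 8.34 and 17.1 CPM after PBS and 31.1, 23.8, 18 and 18 CPM after LPS in experienced mice. All 4 experienced LPS libraries lay above all naive LPS libraries, while the resting groups overlapped. The difference was 1.24 (SE 0.38, unadjusted p = 0.00492), with opposite signs of the 2 responses, and 1.35 without experienced LPS 4. Spry2 gave 0.48 (SE 0.29, unadjusted p = 0.121) and the Erk phosphatase gene Dusp6 0.40 (SE 0.27, unadjusted p = 0.156); both fell in naive mice and did not pass in experienced mice. Cish gave 0.58 (SE 0.41, unadjusted p = 0.177), and Socs3 0.37 (SE 0.53, unadjusted p = 0.493, 0.61 without experienced LPS 4, 0.13 without experienced PBS 4), neither called in either arm.

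**Figure D4:**
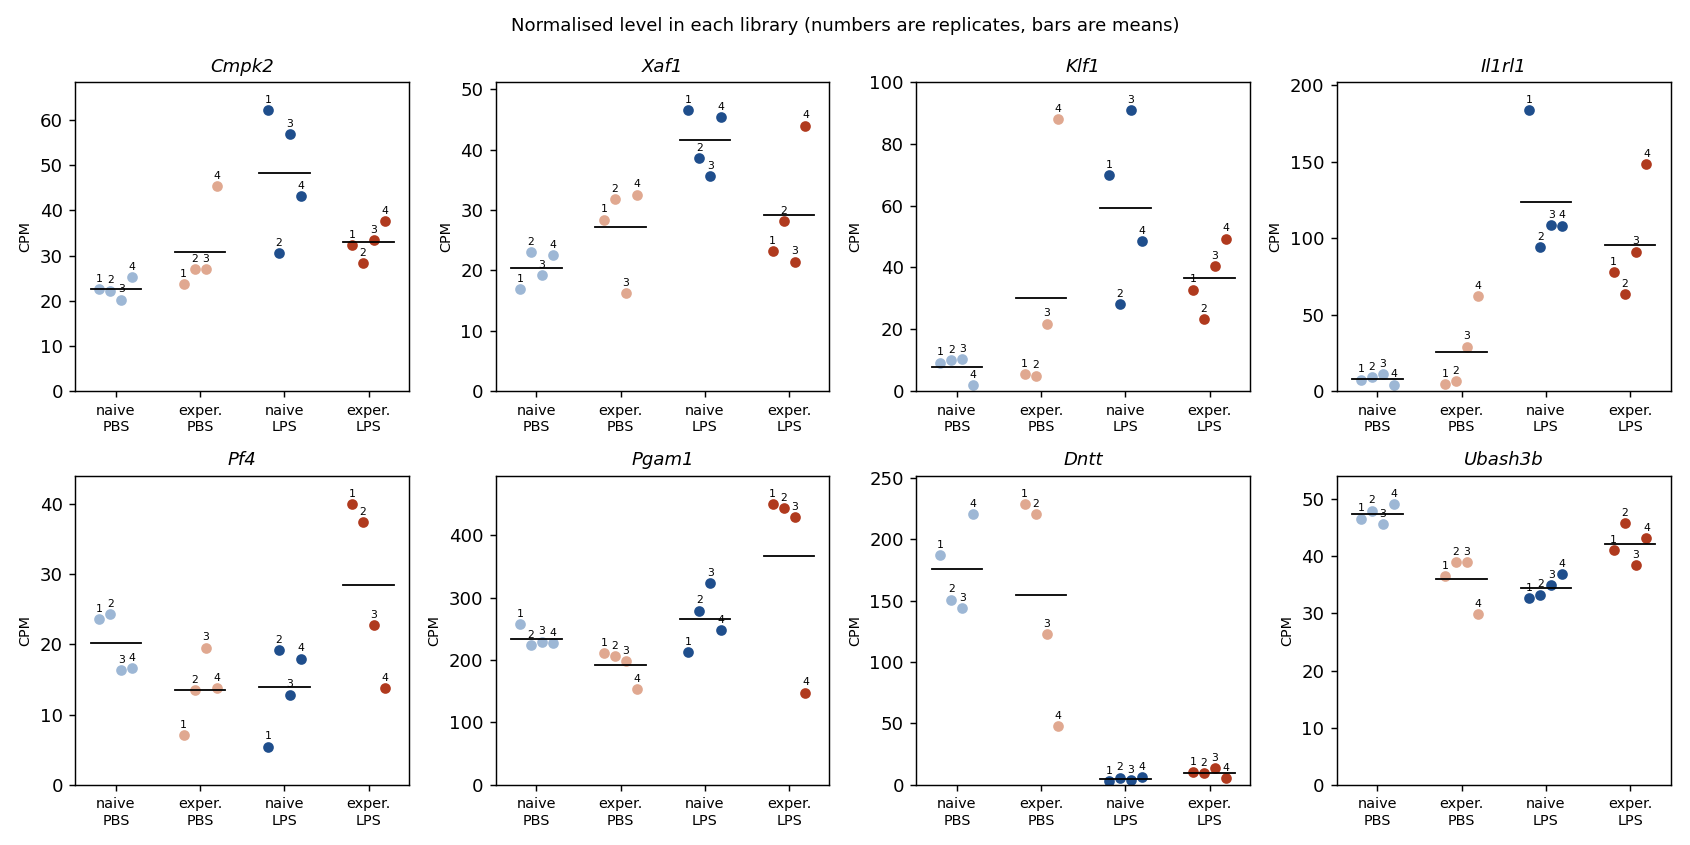
Normalised level (CPM, vertical axis from 0) of 8 genes in each library by condition ("exper." is experienced). Numbers are replicates and bars are group means. Klf1 and Il1rl1 are high in experienced PBS 4, Pgam1 is low and Xaf1 high in experienced LPS 4, and the 4 experienced LPS libraries of Ubash3b lie above the 4 naive LPS libraries.

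Stem cell identity genes fell after LPS in both arms, 15 of 25 in naive mice and 10 in experienced mice, with 3 rising in each. The median difference was 0.22 with all libraries, 0.10 without experienced LPS 4 and 0.01 under quality weights, with a range of 0.10 to 0.38. The mean list score was 0.28 in experienced and 0.57 in naive mice at rest, and -0.41 and -0.43 after LPS. Mecom fell by 2.03 and 1.84, with an interval of -0.39 to 0.78 for the difference, and Hlf fell by 2.40 and 2.10, with an interval of -0.46 to 1.06. The surface genes Procr and Ly6a gave intervals of -0.76 to 1.2 and -0.84 to 1.13, and Kit, -0.49 to 0.47.
At an unadjusted p under 0.05, 3 of the 25 members were positive and 0 negative, beside 1.52% and 3.06% of all genes. Under quality weights 1 was positive and 1 negative, beside 7.71% and 8.07%. The 3 with all libraries included Vwf, described above, and Esam, an adhesion molecule of stem cells. Esam was at 31.9, 27.2, 22.8 and 29.5 CPM after PBS and 8.91, 7.10, 8.37 and 13.1 CPM after LPS in naive mice. Experienced mice had 23.8, 31.0, 9.80 and 9.86 CPM after PBS and 15.4, 19.7, 12.5 and 10.3 CPM after LPS. It fell in naive mice (-1.57, adjusted p = 0.0041), while the value in experienced mice was -0.37 (adjusted p = 0.514), and the difference was 1.2 (SE 0.47, unadjusted p = 0.0202). Experienced PBS 3 and 4 were low at rest, and experienced LPS 1 and 2 were above all naive LPS libraries. Ctnnal1, a catenin relative, gave 0.55 (SE 0.32, unadjusted p = 0.102).

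Lymphoid priming genes fell strongly in both arms, 16 of 21 in naive mice (median -2.04) and 13 in experienced mice (median -1.83), and none rose. The median difference was 0.13, and -0.02 without naive LPS 3. Dntt, the terminal transferase of lymphoid progenitors, was at 187, 151, 144 and 221 CPM after PBS and 3.04, 5.81, 3.90 and 6.23 CPM after LPS in naive mice. It was at 229, 220, 123 and 47.5 CPM after PBS and 10.3, 9.27, 13.7 and 5.50 CPM after LPS in experienced mice. Its fall was 5.24 log2 units in naive and 3.97 in experienced mice, a difference of 1.27 (SE 0.55, unadjusted p = 0.0337). Of the experienced LPS libraries, 3 lay above all naive ones and experienced LPS 4 among them. Flt3, the receptor of lymphoid and myeloid progenitors, fell in both arms and was at 246, 271, 289 and 295 CPM after PBS and 32.6, 41.6, 43.4 and 43.8 CPM after LPS in naive mice. In experienced mice the values were 352, 279, 202 and 122 CPM after PBS and 71.7, 77.5, 67.5 and 25.3 CPM after LPS. The difference was 0.80 (SE 0.43, unadjusted p = 0.0803), and 1.06 without experienced LPS 4 (unadjusted p = 0.00641). Cd52, a lymphocyte surface glycoprotein, gave 0.94 (SE 0.54, unadjusted p = 0.104), and Ccr9, a homing receptor at very low levels, 3.36 (SE 1.63, unadjusted p = 0.0551, 1.67 without experienced LPS 4).

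Genes of quiescence and of the MLL-AF9 programme had list medians of 0.06 and -0.05, with ranges of -0.03 to 0.19 and -0.21 to 0.03 that crossed 0. In the quiescence list, Cdkn1a, an inhibitor of cyclin-dependent kinases, was at 23, 17.7, 21.8 and 20.2 CPM after PBS and 28.1, 18.2, 18 and 20.3 CPM after LPS in naive mice. It was at 22.9, 20.1, 9.54 and 11.2 CPM after PBS and 35.1, 36.1, 35.9 and 19.8 CPM after LPS in experienced mice. The rise passed in experienced mice (0.99, adjusted p = 0.0226) and its value in naive mice was 0.04 (adjusted p = 0.941). The difference was 0.96 (SE 0.37, unadjusted p = 0.021), and 1.13 without experienced LPS 4. Ndn, a growth suppressor at low counts, gave 3.07 (SE 1.22, unadjusted p = 0.0219), and Txnip, a glucose-uptake inhibitor, -0.50 (SE 0.31, unadjusted p = 0.125). Klf2, a quiescence factor, gave 1.43 (SE 0.75, unadjusted p = 0.0755). Among MLL-AF9 target genes, 14 of 19 intervals lay within 1 log2 unit. Hoxa9 gave -0.35 (SE 0.22, unadjusted p = 0.129), Myb -0.52 (SE 0.36, unadjusted p = 0.162, -0.81 without experienced LPS 4) and Mbnl1 -0.34 (SE 0.22, unadjusted p = 0.141).

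Granulocyte-monocyte progenitor genes had a median difference of 0.16, of 0.41 without experienced LPS 4 and of 0.98 under quality weights, where 10 of 18 were positive at an unadjusted p under 0.05, beside 7.71% of all genes. The median was negative without experienced PBS 1 (-0.06), without experienced PBS 2 (-0.08) and with the mitochondrial share as a covariate (-0.19). Only 2 of the 18 intervals lay within 1 log2 unit. Irf8, which directs monocyte and dendritic cell fate, was at 110, 95.8, 101 and 48.9 CPM after PBS and 9.59, 15.1, 15.2 and 12.3 CPM after LPS in naive mice. It was at 113, 72.8, 96.4 and 41.1 CPM after PBS and 31.1, 32.7, 28.4 and 9.90 CPM after LPS in experienced mice. It fell in both arms, by 2.77 and 1.65, a difference of 1.12 (SE 0.49, unadjusted p = 0.0358). After LPS, experienced libraries 1 to 3 lay above all naive ones and experienced LPS 4 with them. Prtn3, a granule protease, was at 247, 214, 224 and 132 CPM after PBS and 159, 160, 377 and 243 CPM after LPS in naive mice and at 204, 154, 223 and 170 CPM after PBS and 488, 549, 582 and 65.4 CPM after LPS in experienced mice. Its difference was 0.97 (SE 0.63, unadjusted p = 0.145), and 1.33 without experienced LPS 4 (unadjusted p = 0.00255). Mpo, myeloperoxidase, had an interval of -1.25 to 1.13, and Igsf6 and Fcgr3 of mature myeloid cells gave -1.48 (SE 0.94, unadjusted p = 0.132, -0.90 without experienced PBS 4) and -1.35 (SE 0.86, unadjusted p = 0.134, -0.71 without experienced PBS 4). Under quality weights these turned to 1.19 and 0.58.
Experienced LPS 4 was the lowest of its group in Irf8, Prtn3 and Mpo, but not in Igsf6 or Fcgr3. It was also the library with the lowest depth and the highest mitochondrial share, whose part in the result was not tested.

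MHC class II genes, which present antigen and are expressed by part of the stem cell pool, leaned positive in 8 of 10 cases (median 0.36, range 0.25 to 0.54). In naive mice 4 fell, and in experienced mice 1 fell. The mean list score was lower in experienced than in naive mice both at rest (-0.01 and 0.61) and after LPS (-0.42 and -0.18). H2-Aa was at 68.1, 71.1, 64.2 and 43.5 CPM after PBS and 30.7, 18.2, 43.7 and 56.5 CPM after LPS in naive mice. It was at 23.2, 33.1, 46.2 and 20.2 CPM after PBS and 42.0, 34.6, 32.2 and 23.4 CPM after LPS in experienced mice. The LPS groups overlapped, and 3 of 4 experienced PBS libraries lay below all naive PBS libraries. The difference was 0.83 (SE 0.44, unadjusted p = 0.0722). H2-DMb1 gave 0.81 (SE 0.46, unadjusted p = 0.0941), H2-Eb1 0.58 (SE 0.36, unadjusted p = 0.123), H2-Ab1 0.29 (SE 0.24, unadjusted p = 0.242) and the invariant chain gene Cd74 0.43 (SE 0.37, unadjusted p = 0.262). MHC class I and immunoproteasome genes had a median of 0.14 (range 0.04 to 0.21, the lowest without experienced PBS 4), with 11 of 16 intervals within 1 log2 unit.

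Marker lists of mature cells were measured for admixture. The summed level of the 7 tested neutrophil genes was 109 to 150 CPM at rest and 42.5 to 64.4 CPM after LPS over both arms. For B and plasma cell genes the sums were 74.7 to 442 CPM at rest and 22 to 68.9 CPM after LPS, and for T and NK cell genes 102 to 153 CPM at rest and 88.1 to 141 CPM after LPS. Monocyte, macrophage and dendritic cell genes, a list that includes Flt3, summed to 192 to 437 CPM at rest and 90.5 to 177 CPM after LPS. Stroma and endothelium genes summed to 162 to 264 CPM at rest and 129 to 170 CPM after LPS. The median differences of the neutrophil and B cell lists were -0.24 and -0.17, and those of T and NK cells, of monocytes and macrophages and of stroma 0.05, 0.18 and 0.08. Each of these 5 medians changed sign under at least 1 left-out library. Their part in the results above was not tested.

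Genes of glycolysis and hypoxia leaned to a higher response in experienced HSPCs. The list joins glycolytic enzymes, transporters and hypoxia markers. Of 22, 19 had a positive difference, with a median of 0.31 and 2 positive at an unadjusted p under 0.05 (1.52% of all genes). These 2 were the transporter gene Slc2a3 and the hypoxia marker Car9, not glycolytic enzymes. In naive mice 2 rose and 2 fell, beside 9.81% and 11.9% of all genes. In experienced mice 6 rose and 1 fell, beside 4.52% and 8.26%. Without experienced LPS 4 the median was 0.52, and 13 were positive and 1 negative, beside 6.78% and 10.1% of all genes.
Pgam1, a phosphoglycerate mutase, stood at 257, 224, 230 and 227 CPM after PBS and 212, 279, 323 and 248 CPM after LPS in naive mice. The experienced arm had 211, 206, 198 and 154 CPM after PBS and 449, 443, 429 and 148 CPM after LPS. Experienced LPS 1 to 3 lay above all other libraries, and experienced LPS 4 lay below all of them. The difference was 0.75 (SE 0.36, unadjusted p = 0.0514), and 1.03 without it (unadjusted p = 0.000119). Slc2a3, a glucose transporter, fell in naive mice (-0.69, adjusted p = 0.00479); it was at 108, 107, 95.9 and 103 CPM after PBS and 69.4, 50.7, 61.5 and 75.2 CPM after LPS. Experienced mice had 108, 93.7, 69.1 and 71.3 CPM after PBS and 78.1, 77.4, 72.1 and 69.3 CPM after LPS, and the difference was 0.48 (SE 0.21, unadjusted p = 0.0369). The hypoxia marker Car9 gave 0.80 (SE 0.31, unadjusted p = 0.0215), and the phosphofructokinase gene Pfkl 0.58 (SE 0.30, unadjusted p = 0.07).

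Cholesterol synthesis genes leaned positive in 18 of 19 cases, with a median of 0.37, 3 positive at an unadjusted p under 0.05 (1.52% of all genes) and medians between 0.20 and 0.40 without each library in turn. In naive mice 2 fell, beside 11.9% of all genes, and in experienced mice 1 fell, beside 8.26%. The mean list score was -0.07 in experienced and 0.19 in naive mice at rest, and -0.03 and -0.09 after LPS.
Mvk, mevalonate kinase, was at 9.81, 11.4, 10.0 and 12.2 CPM after PBS and 4.71, 6.33, 8.80 and 8.42 CPM after LPS in naive mice and at 7.74, 7.29, 6.20 and 5.58 CPM after PBS and 11.2, 11.1, 11.6 and 3.44 CPM after LPS in experienced mice. Its resting groups did not overlap, with experienced mice lower, and experienced LPS 4 was low; the difference was 1.10 (SE 0.43, unadjusted p = 0.0208), and 1.37 without it.

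Among growth and stress lists, ribosome biogenesis genes rose in both arms, 21 and 17 of 24, with medians of 0.78 and 0.72, and 20 of 24 intervals of the difference lay within 1 log2 unit. Endoplasmic reticulum chaperones rose in both, 10 and 9 of 17 (medians 0.71 and 0.70). Heat shock genes rose in 6 and 4 of 13 cases (medians 0.94 and 0.67), with 11 of 13 differences negative (median -0.27). Hsph1, a large cytosolic chaperone, rose by 1.48 and 0.73, a difference of -0.75 (SE 0.31, unadjusted p = 0.0262).
The median difference was 0.05 for G1/S and replication genes (range -0.01 to 0.12), with 20 of 24 intervals within 1 log2 unit. For G2/M and mitosis genes it was -0.18, with 15 of 24, and turned to 0.03 without naive LPS 2 and to 0.19 under quality weights. The replication licensing gene Cdc6 gave -0.59 (SE 0.26, unadjusted p = 0.0352, -0.35 without experienced PBS 4) and the proliferation marker Mki67 -0.51 (SE 0.39, unadjusted p = 0.212). Atf4 target genes had a median of 0.19 (14 of 17 positive, range 0.12 to 0.31). In that list, the serine synthesis gene Phgdh gave 0.88 (SE 0.38, unadjusted p = 0.0315), the pseudokinase gene Trib3 1.78 (SE 0.86, unadjusted p = 0.0535), the asparagine synthetase gene Asns -1.25 (SE 0.67, unadjusted p = 0.0824, -0.43 without experienced PBS 4) and Atf3 1.63 (SE 0.91, unadjusted p = 0.0923). Cytosolic ribosomal protein genes were positive in 24 of 30 cases (median 0.30) and nuclear oxidative phosphorylation genes in 21 of 25 (median 0.19), with 0 of either list at an unadjusted p under 0.05. Without experienced LPS 4 these medians were 0.44 and 0.41, with 5 and 8 members positive at an unadjusted p under 0.05, beside 6.78% of all genes. Metal-binding Mt1 gave -2.49 (SE 0.97, unadjusted p = 0.02), and -1.31 without experienced PBS 4. The glutathione synthesis gene Gclc gave -0.71 (SE 0.33, unadjusted p = 0.0485).

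Further lists were measured as possible marks of handling or RNA quality, and whether they track either was not tested. Mitochondrially encoded genes had a median difference of -0.40 with all libraries, -1.5 without experienced LPS 4 and -0.03 without experienced PBS 4. Transcripts known to be kept in the nucleus or to hold introns were negative in 19 of 20 cases (median -0.46, and -0.65 without experienced LPS 4). Zinc finger genes named Zfp, Zkscan or Zscan were negative in 249 of 349 cases (median -0.17, and -0.30 without it), against 53.2% negative over all genes. Both lists were added after values had been seen. At an unadjusted p under 0.05, 4 of the 20 and 12 of the 349 were negative and 0 positive, beside 3.06% and 1.52% of all genes. Of the mitochondrially encoded and the immediate early genes, 0 reached that p in either direction. Immediate early genes, which cell isolation can induce, were positive in 20 of 23 cases (median 0.28, range 0.09 to 0.61). These values stand beside the gene lists above, and their part in them was not tested.

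Of genes whose mean log2 CPM reached 2, the 20 with the lowest unadjusted p were taken, 10 in each direction. Gene models (Gm numbers, Rik names), identifiers without a symbol, immunoglobulin and T cell receptor segments, Xist, Tsix and Y-linked genes were left out beforehand. They split into 13 with opposite signs of the 2 responses, 6 with a weaker and 1 with a stronger response in experienced mice. Choosing genes by a low p favours opposite signs. The 695 genes at an unadjusted p under 0.05 split into 388 opposite, 241 weaker and 66 stronger. None of the 20 passed adjustment. Ubash3b, a phosphatase that dampens receptor tyrosine kinase signalling (chromosome 9, 41011098 to 41161697), had the lowest p among positive ones. It was at 46.6, 48.0, 45.7 and 49.1 CPM after PBS and 32.7, 33.3, 35.0 and 36.8 CPM after LPS in naive mice. In experienced mice it was at 36.6, 39.0, 38.9 and 29.8 CPM after PBS and 41.1, 45.8, 38.5 and 43.2 CPM after LPS. Neither the resting groups nor the LPS groups overlapped, with experienced mice lower at rest and higher after LPS. The difference was 0.68 (SE 0.16, unadjusted p = 0.000623), and stayed between 0.68 without experienced LPS 4 and 0.61 without experienced PBS 4.
Thbd, the thrombin receptor thrombomodulin (chromosome 2, 148404466 to 148408188), was at 24.5, 23.2, 16.7 and 17.6 CPM after PBS and 15.3, 14.6, 10.0 and 17.7 CPM after LPS in naive mice. It was at 15.8, 13.3, 12.3 and 11.1 CPM after PBS and 17.8, 17.2, 20.6 and 18.7 CPM after LPS in experienced mice, where the PBS and LPS groups did not overlap. The difference was 1.01 (SE 0.27, unadjusted p = 0.00181), again with lower resting values in all 4 experienced libraries. Kcnk6, a potassium channel gene (chromosome 7, 29221926 to 29232515), was the one with a stronger response. It was at 4.64, 4.91, 3.79 and 4.07 CPM after PBS and 4.87, 4.00, 5.97 and 3.07 CPM after LPS in naive mice. It rose in experienced mice, which had 2.56, 2.97, 4.00 and 1.77 CPM after PBS and 8.08, 8.02, 8.11 and 6.46 CPM after LPS, and the difference was 1.39 (SE 0.38, unadjusted p = 0.00224).
Lpar5, a lysophosphatidic acid receptor, fell in naive mice, which had 13.6, 15.3, 12.9 and 13.5 CPM after PBS and 4.14, 4.00, 5.93 and 5.09 CPM after LPS. Experienced values were 13.6, 11.3, 8.47 and 9.30 CPM after PBS and 6.91, 8.36, 7.92 and 6.05 CPM after LPS, with no overlap of the LPS groups, and the difference was 0.98 (SE 0.29, unadjusted p = 0.00351). The remaining positive genes were Dusp4, an Erk phosphatase (1.42), Spry1 as above, Cyba, a subunit of the phagocyte oxidase (1.03), Bphl (1.22), Mboat1 (0.98) and Sdr39u1 (0.94). Spry1 and Dusp4 both restrain Erk signalling.

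Among negative genes, Surf2, a nucleolar protein (chromosome 2, 26916367 to 26920183), had the lowest p. It was at 30.9, 31.9, 30.4 and 29.5 CPM after PBS and 47.8, 53.8, 45.6 and 56.0 CPM after LPS in naive mice. The experienced libraries held 37.0, 32.8, 39.7 and 45.7 CPM after PBS and 40.6, 33.9, 41.2 and 43.3 CPM after LPS. It rose in naive mice and did not pass in experienced mice, and the arms overlapped neither at rest nor after LPS, and the difference was -0.69 (SE 0.18, unadjusted p = 0.00132). Surf2 overlaps Surf1 and Surf4 on the other strand.
Ttc19, an assembly factor of respiratory complex III (chromosome 11, 62281473 to 62328451), was at 11, 11.3, 12.6 and 12.3 CPM after PBS and 14.9, 18.6, 12.7 and 15.5 CPM after LPS in naive mice. It was at 15.1, 15.8, 11.9 and 18.5 CPM after PBS and 9.15, 12.2, 10.7 and 7.01 CPM after LPS in experienced mice, where it fell (-0.64, adjusted p = 0.0399). Polr3gl, a subunit of RNA polymerase III, was at 18.3, 14.8, 14.2 and 16.9 CPM after PBS and 19.4, 21.4, 18.8 and 17.4 CPM after LPS in naive mice and at 20.4, 19.7, 19.7 and 16.9 CPM after PBS and 11.4, 14.6, 15 and 13.7 CPM after LPS in experienced mice, where it fell as well (-0.49, adjusted p = 0.0411). Their differences were -1.03 (SE 0.27, unadjusted p = 0.00163) and -0.75 (SE 0.21, unadjusted p = 0.00245), and neither gene's LPS groups overlapped.
Amigo2, an adhesion protein gene (chromosome 15, 97244125 to 97247287), was at 3.67, 3.74, 4.56 and 3.95 CPM after PBS and 28.4, 11.9, 26.5 and 20.1 CPM after LPS in naive mice. Experienced mice had 4.03, 4.06, 11.7 and 16.8 CPM after PBS and 8.13, 5.76, 13.4 and 18.1 CPM after LPS. Experienced PBS 3 and 4 were high at rest, as in the erythroid genes, and the difference was -2.13 (SE 0.62, unadjusted p = 0.00328), or -1.65 without experienced PBS 4. Ago3, an Argonaute protein, was at 31.8, 37.2, 44.3 and 34.3 CPM after PBS and 48.8, 46, 35.1 and 62.3 CPM after LPS in naive mice and at 49.0, 39.3, 52.0 and 45.5 CPM after PBS and 36.5, 31.4, 37.0 and 36.6 CPM after LPS in experienced mice, a difference of -0.77 (SE 0.23, unadjusted p = 0.00375). The others were Cmpk2 and Uros as above, Sec14l2 (-1.81), the lysosomal amino acid sensor gene Slc38a9 (-1.15) and the RNA-binding gene Rbm4 (-0.64). Of the 20, some share their locus with another gene (Polr3gl, Ttc19, Sdr39u1, Sec14l2, Cyba, Mboat1, Spry1, Amigo2, Uros and Rbm4 besides Surf2), and the counting is not stated to use strand.

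**Figure D5:**
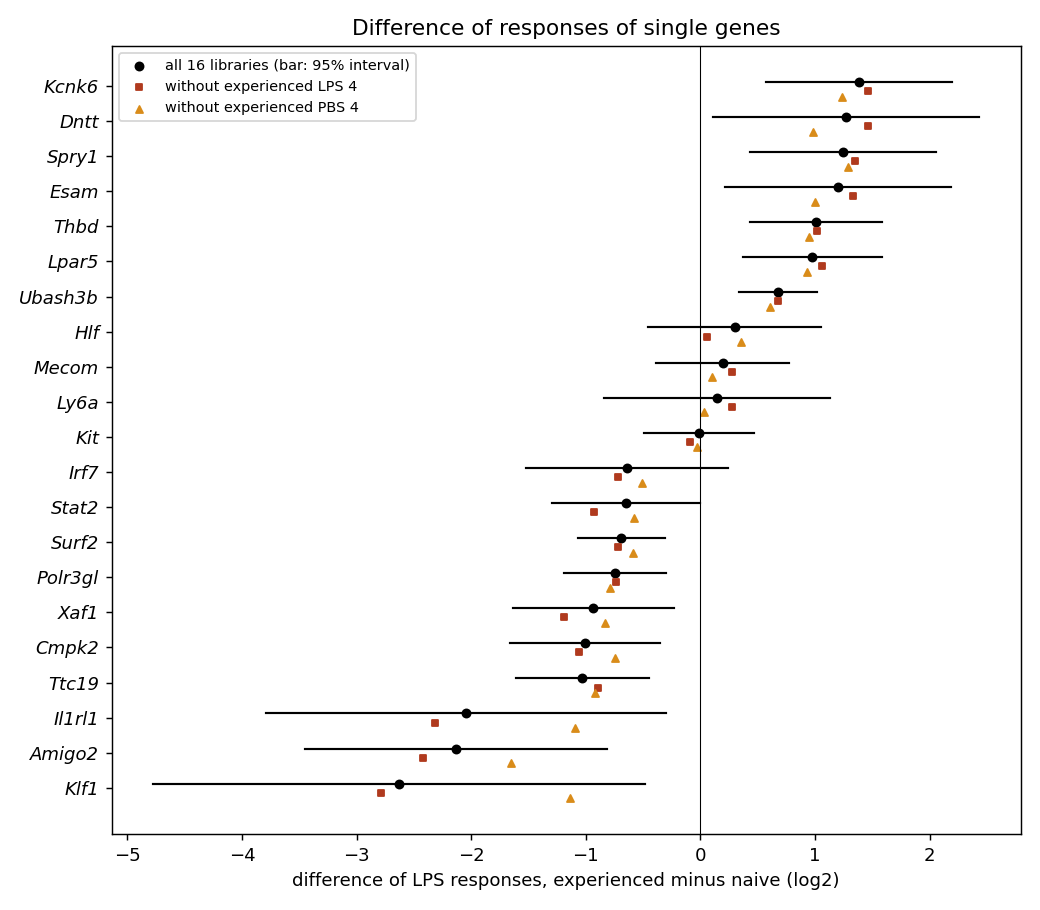
Difference of LPS responses (experienced minus naive, log2, horizontal axis) of 21 genes. Black points and bars are estimates with 95% intervals from all 16 libraries, red squares leave out experienced LPS 4 and orange triangles leave out experienced PBS 4. Kit, Mecom and Hlf span 0, Ubash3b and Surf2 stay close to their estimates without either library, and Klf1 moves from -2.63 to -1.14 without experienced PBS 4.

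The only call by edgeR, DESeq2 or limma voom was the protein-coding gene 1500009L16Rik (chromosome 10, 83722865 to 83762762), which lies below that expression limit and is named here after its values were seen. It was at 5.70, 7.11, 6.96 and 8.21 CPM after PBS and 0.891, 1.81, 0.753 and 0.614 CPM after LPS in naive mice. The experienced arm had 4.24, 6.40, 4.27 and 3.53 CPM after PBS and 3.10, 3.16, 2.45 and 3.57 CPM after LPS. The resting groups overlapped and the LPS groups did not. It fell in naive mice (-2.83, adjusted p = 4.64e-05), while the value in experienced mice was -0.60 (adjusted p = 0.22). DESeq2 gave an adjusted p of 0.00249 for the difference. By edgeR's quasi-likelihood test it was 2.23 (SE 0.45, unadjusted p = 0.000121), with an adjusted p of 0.884.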

How the data were processed

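Bulk RNA profiles of sorted HSPCs were available as 16 per-library tables. The authors' tables hold RSEM expected counts and TPM per gene, per the file headers. Trim Galore 0.6.7, STAR 2.7.10a, RSEM 1.3.1 and the GRCm38 build are named in the submitters' processing notes, and no source used here states the strand setting. The deposited expected counts were rounded to whole numbers and tested with edgeR 4.0.16 (TMM factors, filterByExpr with a minimum count of 10, glmQLFit and glmQLFTest, all 16 libraries, 12 residual degrees of freedom, biological coefficient of variation 0.306), with Benjamini-Hochberg adjustment over 15186 genes at 0.05. These genes held 99.928% of the counts, and 30520 were not tested. Per-library values are CPM with TMM factors. The deposited TPM values entered an alternative only, on log2(TPM + 1) and log2(TPM + 0.1). Alternatives used DESeq2 1.42.0, limma 3.58.1 (voom with sample quality weights), other scalings and filters, a mitochondrial covariate, a replicate block and left-out libraries. The edgeR step was tested on simulated data. Gene positions came from GENCODE M21, which matched 45143 of 45706 identifiers.

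Genes are named by rule: the 10 lowest unadjusted p in each direction where the mean log2 CPM reached 2, up to 4 members with the lowest p per list, and a set listed by symbol. The first of these rules left out gene models, identifiers without a symbol, immunoglobulin and T cell receptor segments, Xist, Tsix and Y-linked genes. Several genes picked this way are left unreported. A list score is the mean over members of log2 CPM (prior count 2) centred on each gene's mean. The lists and members were chosen with earlier results of these data known. With 4 libraries per group, the median SE of a difference was 0.35 log2 units.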

Additional observations from a re-analysis of the deposited data

Results flagged for a closer look

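In groups of 4 libraries, a highest or lowest value was marked where its gap to the nearest other took up more of the group's range than Dixon's 95% critical value allows. Of 216 groups tested, 20 were marked; chance marks about 1 in 20 groups. Experienced LPS 4 held 11 of the 20 and experienced PBS 4 held 1.

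In experienced LPS 4, Pgam1 was at 148 CPM against 429 to 449 CPM in the other 3, Mvk at 3.44 CPM against 11.1 to 11.6, and Cdkn1a at 19.8 CPM against 35.1 to 36.1. Tnf was at 2.89 CPM there against 8.11 to 8.70, Fcer1a at 12.5 CPM against 23 to 24.8, and Kcnk6 at 6.46 CPM against 8.02 to 8.11. The same library had a score of -0.383 for NF-kB genes (others 0.359 to 0.390) and -0.408 for interleukin-6 and Stat3 genes (0.631 to 0.695). It had -0.429 for glycolysis and hypoxia genes (0.347 to 0.379) and -1.32 for lymphoid priming genes (-0.838 to -0.777). Its mitochondrial share was 7.30% against 1.91 to 2.50%.

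Cmpk2 stood at 45.5 CPM in experienced PBS 4, against 23.7 to 27.1 CPM in the rest of that group. In experienced PBS 2, the interferon-gamma GTPase score was 0.145 against -0.294 to -0.237. In experienced LPS 2, Gata1 was at 63.2 CPM against 74.0 to 75.5, and Ago3 at 31.4 CPM against 36.5 to 37.0. Among naive libraries, Klf1 was at 1.80 CPM in PBS 4 against 9.20 to 10.3, Pgam1 at 257 CPM in PBS 1 against 224 to 230, and Il1rl1 at 184 CPM in LPS 1 against 94.4 to 109. Naive LPS 3 had a stem cell identity score of -0.803 against -0.351 to -0.287. Naive PBS 4 had 17626 genes with a count, about 17600 against 19500 to 19700 in the other 3.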

How the results depend on the processing

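The count of 0 genes with a different response held under every alternative except DESeq2, which called 1. The unadjusted count was 695; it was 1186 without a filter on low counts, 1927 without both experienced libraries of high mitochondrial share, 2397 under voom with quality weights and 449 on log2(TPM + 0.1), and 391 to 2561 without each library in turn (highest without experienced LPS 4, and 391 without experienced PBS 4). The naive response had 3293 calls, 1880 on log2(TPM + 1), 1772 on log2(TPM + 0.1), and 2090 (without naive PBS 2) to 4402 (without experienced LPS 4) with a library left out. The experienced response had 1940 calls, 3376 without both, 7542 under voom, 1132 and 1107 on the TPM scales, and 1075 (without experienced PBS 1) to 3211 (without experienced LPS 4). The average response had 5084, 7992 under voom, and 4172 to 5721 with a library left out. The cause was not tested.

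Of 107 named genes, 93 kept the sign of their difference under all 28 alternatives. Without both experienced libraries of high mitochondrial share the sign turned for Fcer1a (0.10), Cxcl10 (0.28), Tlr4 (0.0622), Lcn2 (0.13), Procr (-0.0220) and Mpo (0.61). Under voom it turned for Fcer1a (0.47), Saa3 (-0.26), Epx (0.33), Tlr4 (0.0487), Lcn2 (0.70), Procr (-0.33), Ly6a (-0.40), Igsf6 (1.19), Fcgr3 (0.58) and Mpo (1.03). Cxcl10 gave 0.0020 with the mitochondrial covariate and 0.40 and 0.43 on log2(TPM + 1) and log2(TPM + 0.1), where Mpo gave 0.10 on both. Kit gave 0.0176 with RLE factors, 0.0170 by DESeq2, 0.0224 with no filter, 0.0162 with a stricter filter, 0.031 with upper-quartile factors and 0.00916 with the replicate block. With a library left out, the ranges that crossed 0 were Fcer1a -0.30 to 0.12, Cxcl10 -0.40 to 0.26, Csf2rb2 -0.48 to 0.0490, Tlr4 -0.40 to 0.11, Tnfaip3 -0.0517 to 0.62, Lcn2 -1.47 to 0.0780, Procr -0.0605 to 0.44, Kit -0.12 to 0.15, Ly6a -0.0814 to 0.39 and Mpo -0.27 to 0.42.

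Replicate numbers did not pair the libraries as a whole: deviations of same-numbered libraries correlated from -0.223 to 0.321 (median -0.0268, 24 pairs), and 2 of 16 correlated best with their own number. The value of 0.321 was that of experienced PBS 4 with experienced LPS 4, both of high mitochondrial share. Differently numbered libraries reached 0.317. With the replicate block, 0 genes were called and 607 had an unadjusted p under 0.05, and the erythroid members at that p went from 10 to 1 of 21. Of 1120 list medians under alternatives, 1081 moved by less than 1 SD between replicates. That SD is of the list scores of single libraries, so a median can change sign within it. Of 40 lists, 23 kept the direction of their median under every alternative. Depth limits low genes such as Cd14, Saa3, Lrg1 and Epx, where a few counts set the resting level.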

Other observations

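Adhesion and homing genes, which hold HSPCs in the marrow niche, had a median difference of 0.19 (0.10 to 0.25 with each library left out), with 13 of 19 positive and 2 positive at an unadjusted p under 0.05, beside 1.52% of all genes. In naive mice 1 rose and 5 fell, and in experienced mice 1 rose and 2 fell. TGF-beta and Smad genes, which restrain stem cell cycling, had a median of 0.07 (0.06 to 0.18), and 12 of 14 intervals lay within 1 log2 unit of 0. Targets of p53 had a median of -0.18 (-0.20 to -0.08, 11 of 18 negative), and Bcl2 family genes, which set the threshold for apoptosis, -0.05 (-0.13 to 0.03, 7 of 11 negative). Metallothionein and oxidative stress genes had a median of -0.07 (-0.15 to 0.09), with 2 of 18 negative at an unadjusted p under 0.05, beside 3.06% of all genes, and 0 without experienced PBS 4.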
